A study of Mus musculus with 9 samples.

Results

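*Apoc3* lies in a cluster of apolipoprotein genes on mouse chromosome 9, and its expression was followed with that of 7 neighbors in livers of mice treated with an antisense oligonucleotide (ASO) against apoC-III. The 8 genes, *Apoc3*, *Apoa1*, *Apoa4*, *Apoa5*, *Zpr1*, *Bud13*, *Sik3* and *Pafah1b2*, were taken by symbol from the 51912 genes of the deposited table, and each symbol matched 1 gene. Livers came from 9 fasted mice on a C57Bl/6 background, of which 5 received the apoC-III ASO and 4 a control ASO. Both ASOs were injected intraperitoneally at 50 mg/kg/week for 8 weeks. Every mouse, controls included, was Apoe-/-Ndst1 f/f Alb-Cre+, so *Apoe* was inactivated in all tissues and *Ndst1*, which encodes a heparan sulfate sulfotransferase, was floxed with Cre driven by the albumin promoter of hepatocytes. All values therefore describe the cluster on an *Apoe*-deficient background. The age of the mice and the diet behind the RNA sequencing are not given in the sources used here. Libraries were stranded, depleted of ribosomal RNA and read from one end.

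The proteins of this cluster travel on lipoproteins and tune how triglyceride (TG) is cleared from blood. ApoC-III slows lipolysis by lipoprotein lipase (LPL) and the hepatic uptake of TG-rich lipoproteins (TRLs), apoA-V promotes lipolysis, apoA-I is the main protein of HDL, and apoA-IV is made mostly by the intestine and also by liver. ASOs of this kind pair with their target RNA, which RNase H then cleaves, and neighboring genes are not designed targets.

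In mouse genome build GRCm38 (GENCODE M21 annotation) the cluster genes follow each other closely on chromosome 9. *Pafah1b2* (45962859 to 46012690, minus strand) and *Sik3* (46012820 to 46224194, plus strand) point away from each other with 129 bases between them. *Apoa1* (46228580 to 46230466, plus strand) ends 2466 bases before *Apoc3* (46232933 to 46235636, minus strand), so their ends face each other. *Apoa4* (46240696 to 46243459, plus strand) lies 5059 bases beyond the *Apoc3* start site and is transcribed away from it. *Apoa5* (46268633 to 46271919), *Zpr1* (46273064 to 46282643) and *Bud13* (46283008 to 46299110) follow on the plus strand, with 1144 bases between *Apoa5* and *Zpr1* and 364 bases between *Zpr1* and *Bud13*.

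The coding sequence of *Apoc3* is shown because it belongs to the RNA that the ASO is directed against. Its 300 bases lie within chr9:46233223-46234713 on the minus strand, and the capitals mark the 104 bases at chr9:46234437-46234540 that all 5 annotated transcripts contain.
Apoc3 coding sequence: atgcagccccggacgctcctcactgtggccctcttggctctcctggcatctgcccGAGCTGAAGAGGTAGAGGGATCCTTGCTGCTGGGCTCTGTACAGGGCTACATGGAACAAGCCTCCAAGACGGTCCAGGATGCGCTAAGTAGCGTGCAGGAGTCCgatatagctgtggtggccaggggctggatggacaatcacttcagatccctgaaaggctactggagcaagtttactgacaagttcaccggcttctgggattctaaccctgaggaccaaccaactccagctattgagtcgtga

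Whether reads of one cluster gene could be credited to another gene was examined by comparing every stretch of 31 bases in the annotated transcripts, on either strand. *Apoc3* (1009 distinct stretches), *Apoa1* (1220) and *Zpr1* (3638) shared none with any other gene. *Apoa4* shared 64.5% of its stretches with 2 overlapping antisense genes, Gm47528 and Gm10680, and *Apoa5* shared 18.4% with the antisense gene Gm47544. These 3 antisense genes reached at most 0.0228 TPM in any liver. *Bud13* shared 4.57%, all of it in a retained-intron transcript, with 1052 genes. *Sik3* shared 0.309% and *Pafah1b2* 0.334%. No cluster gene shared a stretch with the 7SL RNA genes *Rn7s1* and *Rn7s2*.

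Promoter sequences from the RefSeq table of GRCm38.p6 were matched for 7 of the 8 genes, and no window was matched for *Apoc3*. The bases before the starts of *Apoa1* and *Apoa5* are shown as the promoters of the most abundant neighbor and of the neighbor with the opposite role in lipolysis. They lie at chr9:46228380-46228579 and chr9:46268383-46268632, both on the plus strand, and the capitals mark a TATAAA match.
Apoa1 promoter: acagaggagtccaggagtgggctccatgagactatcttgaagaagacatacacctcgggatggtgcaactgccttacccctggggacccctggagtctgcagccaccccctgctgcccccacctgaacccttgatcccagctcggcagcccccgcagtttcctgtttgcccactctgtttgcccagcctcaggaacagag
Apoa5 promoter: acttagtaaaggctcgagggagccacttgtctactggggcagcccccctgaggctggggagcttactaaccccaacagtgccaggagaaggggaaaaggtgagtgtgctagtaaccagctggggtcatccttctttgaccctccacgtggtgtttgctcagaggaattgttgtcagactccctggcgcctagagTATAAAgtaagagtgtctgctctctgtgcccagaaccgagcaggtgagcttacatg
The windows were searched on both strands for the TATA box TATAAA. Searches were also made for AGGTCA, found in nuclear receptor sites, and for GTTAAT, found in HNF1 sites. The TATA box was found at *Apoa5* in 2 of 2 windows and at no other cluster gene, and 13.6% of all 32544 distinct windows held it. AGGTCA was found at *Zpr1*, *Sik3* and 2 of 4 windows of *Pafah1b2*, against 16.2% of all windows. With 129 bases between *Sik3* and *Pafah1b2*, their windows may cover the same bases. Whether their matches are the same site was not examined. GTTAAT was found in no window of the cluster, against 7.13% of all windows.

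The deposited values are TPM, transcripts per 1000000, a length-corrected share of each library in which depth is not kept. Small and mitochondrial RNAs took most of that share. The 7SL genes alone held 64.0% to 83.6% of TPM with the apoC-III ASO and 66.3% to 77.6% with the control ASO, and nuclear protein-coding genes held 3.03% to 5.31% and 1.94% to 8.64%. Control ASO replicate 4 had the lowest protein-coding share (1.94%) and apoC-III ASO replicate 5 the next lowest (3.03%). Levels are therefore also given after protein-coding rescaling, in which the 21780 nuclear protein-coding genes were brought to 1000000 per liver and divided by a median-of-ratios factor. That factor was 0.496 in control ASO replicate 4 and between 0.930 and 1.44 in the other livers. The liver identity of the samples was checked on hepatocyte genes, which summed after rescaling to 23196 to 52036 with the apoC-III ASO and 33179 to 45779.7 with the control ASO, with *Alb* the most abundant. *Apoe* was still listed, at 36.1 ± 11.0 (SD, n = 5) against 50.8 ± 19.4 (SD, n = 4) rescaled, and *Ndst1* at 10.1 ± 1.44 against 8.52 ± 2.73. These values were not resolved by exon, so they do not check either genotype.

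*Apoc3*, the target of the ASO, was lower in every apoC-III ASO liver than in every control ASO liver, while the other 7 genes of the cluster overlapped between the groups on both scales. With the apoC-III ASO, *Apoc3* stood in replicates 1 to 5 at 27.2, 28.4, 15.8, 32.2 and 14.0 TPM. In control ASO replicates 1 to 4 it stood at 271, 199.5, 184 and 41.4 TPM. The lowest control value came from the liver with the lowest protein-coding share, and it was still above the highest treated value. The mean fell by 86.5%, from 173.8 ± 96.1 TPM (SD, n = 4) to 23.5 ± 8.12 TPM (SD, n = 5), with p = 0.0159 in an exact two-sided permutation test, the smallest p that 5 livers against 4 allow. Among the 4936 genes tested on this scale, 0.0405% lay lower and 0.182% lay higher in every treated than in every control liver. In bulk liver, fewer cells of a type and less RNA per cell cannot be told apart from the level of one gene. For *Apoc3*, the hepatocyte marker sums given above overlapped between the groups, and the ratio of *Apoc3* to *Alb*, a hepatocyte gene, fell by 86.2%.

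Rescaling narrowed the control group and left the decrease of *Apoc3* at a similar size. Rescaled *Apoc3* was 379, 431, 334, 623 and 486 in apoC-III ASO replicates 1 to 5 and 3372, 3170.3, 3481 and 4293 in control ASO replicates 1 to 4. The control liver that was lowest in TPM was the highest here. The mean fell by 87.4%, from 3579 ± 493 (SD, n = 4) to 451 ± 112 (SD, n = 5), with p = 0.0159 in the exact permutation test. The treated livers held between 9.35% and 17.4% of the control mean, with replicate 3 the lowest and replicate 4 the highest. After rescaling, 0.912% of 11954 genes lay lower in every treated liver and 0.92% higher.

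The limma fit across all genes called *Apoc3* lower only after rescaling. Its log2 fold change was -3.01 (SE 0.23, 95% interval -3.52 to -2.50, adjusted p = 3.83e-04), and 0.0167% of the 11954 genes tested were called lower (over 1.5-fold, with an adjusted p below 0.05). *Apoc3* was 1 of 2 such genes, and the other was *Anpep*, which encodes aminopeptidase N (limma adjusted p = 0.0480). In TPM as deposited the log2 fold change was -2.62 (SE 0.73, 95% interval -4.04 to -1.20) and missed the threshold (limma adjusted p = 0.104), where 0.122% of 4936 genes were called lower and 0.101% higher. Leaving out control ASO replicate 4 gave -3.21 in TPM with a limma adjusted p of 0.00270. A fold change on this log2(value + 1) scale understates the change of low genes, such as *Apoa4*, *Sik3* and *Pafah1b2* in TPM.

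Each liver also offers an internal reference, since *Apoa1* lies next to *Apoc3* and any scaling of the library cancels in their ratio. The ratio of *Apoc3* to *Apoa1* TPM was 0.0691, 0.114, 0.0877, 0.130 and 0.112 in apoC-III ASO replicates 1 to 5. It was 0.603, 0.636, 0.679 and 0.655 in control ASO replicates 1 to 4, a spread of 1.13-fold where *Apoc3* TPM itself spread 6.55-fold. The geometric mean of the ratio fell by 84.4% (exact two-sided permutation test, p = 0.0159). It fell by 84.8% with the sum of the other 7 cluster genes in place of *Apoa1*, and with *Alb* it fell by 86.2%. Of 4935 genes set over *Apoa1* in the same way, 0.243% lay lower in every treated liver.

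**Figure D1:**
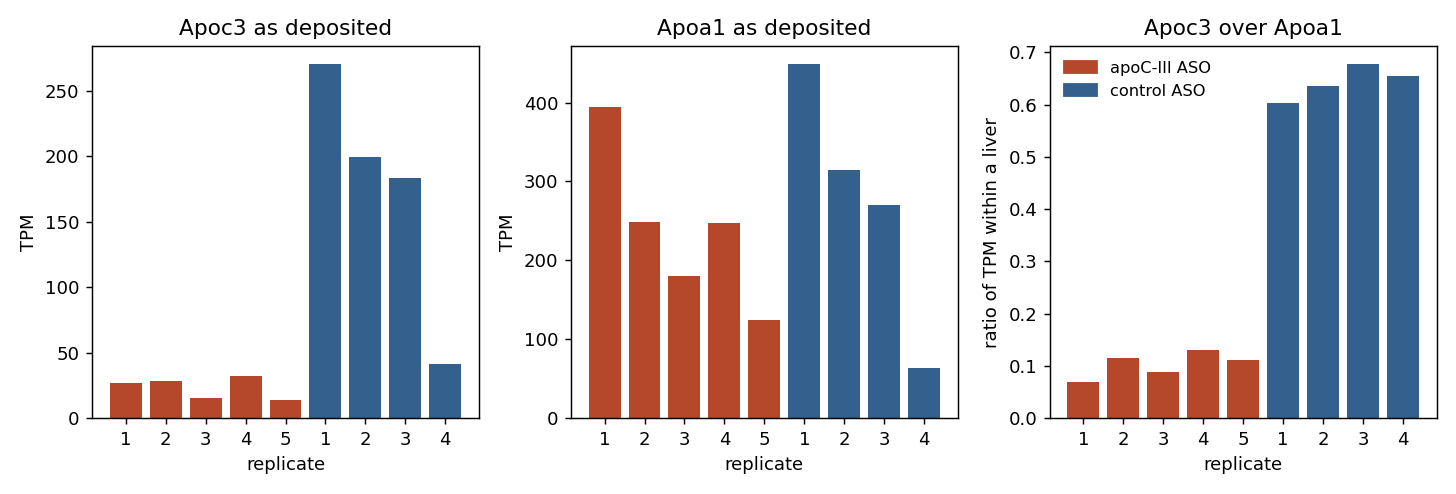
*Apoc3* (left) and *Apoa1* (middle) in TPM as deposited and their ratio within a liver (right), 1 bar per liver, with bars from 0. The 4 control ASO livers range from 41.4 to 271 TPM for *Apoc3* but from 0.603 to 0.679 for the ratio, and the 5 apoC-III ASO livers lie between 0.0691 and 0.130.

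*Apoc3* also changed its place among the protein-coding genes of a liver. By TPM, which is corrected for length, it ranked 22 to 24 in the control ASO livers and 142 to 206 in the apoC-III ASO livers. *Apoa1* ranked 15 to 18 and 14 to 19. Of the summed TPM of the 8 genes, *Apoc3* made up 31.8% to 33.7% in controls and 4.61% to 9.38% in treated livers, and *Apoa1* 49.6% to 53.8% and 64.2% to 72.2%. Such shares add up to the whole in each liver, so the share of *Apoa1* also depends on the level of *Apoc3*. In the control ASO livers the order of mean TPM was *Apoa1*, *Apoc3*, *Apoa5*, *Zpr1*, *Bud13*, *Sik3*, *Apoa4* and *Pafah1b2*. *Apoa1* exceeded *Apoc3*, *Apoc3* exceeded *Apoa5* and *Zpr1* exceeded *Bud13* in all 4 of these livers, *Apoa5* exceeded *Zpr1* in 3, and the last 4 genes changed places between livers. In the apoC-III ASO livers *Apoc3* stood below *Zpr1* in 4 of 5 livers and above *Bud13* in all 5.

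*Apoa1*, the main HDL protein gene, overlapped between the groups. It stood at 394, 248, 180.0, 247 and 125 TPM in apoC-III ASO replicates 1 to 5 and at 449, 314, 270.5 and 63.2 TPM in control ASO replicates 1 to 4. After rescaling it was 5479.9, 3764, 3813, 4775 and 4323 against 5592, 4988, 5129.6 and 6553. Of the treated livers only replicate 1 then reached into the control range. The rescaled log2 fold change was -0.34 (95% interval -0.83 to 0.16, limma adjusted p = 0.904), and in TPM as deposited it was 0.00234 (-1.36 to 1.36, limma adjusted p = 0.9997). Its direction depended on the scaling, being 0.14 when the median-of-ratios factors were left out, a choice that put the median of all genes at 0.41. These fits did not separate *Apoa1* from no change, and the rescaled interval reaches down to a log2 fold change of -0.83.

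*Apoa5*, whose product promotes lipolysis of TRLs, showed no called change. Its TPM was 119.5, 56.9, 28.8, 31.9 and 21.3 in apoC-III ASO replicates 1 to 5 and 88.2, 85.4, 54.8 and 8.89 in control ASO replicates 1 to 4. The rescaled values were 1663, 862, 609.7, 616 and 739.9 against 1098, 1356, 1039 and 922. Replicate 1 of the treated group was the highest of all 9 livers and the other 4 treated livers lay below every control liver. The rescaled log2 fold change was -0.39 (95% interval -1.06 to 0.27, limma adjusted p = 0.914), and without apoC-III ASO replicate 1 it was -0.64. In TPM as deposited it was -0.07, and it was 0.086 after rescaling without the median-of-ratios factors.

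*Apoa4* was a minor transcript of these livers, far below *Apoa1* per length in every liver. Its TPM was 2.23, 1.48, 1.04, 2.43 and 1.28 in apoC-III ASO replicates 1 to 5 and 1.92, 1.44, 1.49 and 0.249 in control ASO replicates 1 to 4. Rescaled, it was 31.1, 22.4, 22.0, 47.0 and 44.5 against 23.9, 22.9, 28.3 and 25.8. Treated replicates 1, 4 and 5 lay above every control liver, and treated replicates 2 and 3 below every one. The rescaled log2 fold change was 0.32 (95% interval -0.25 to 0.90, limma adjusted p = 0.919). The enterocyte list summed to 10.3 to 42.0 in treated and 8.01 to 21.8 in control livers on the rescaled scale. Of its 8 markers, *Fabp2* (8.49 to 28.9 in treated and 6.51 to 18.3 in control livers) and *Sis* (1.62 to 12.2 and 0.725 to 2.58) were above 0 in all 9 livers and reached higher in treated livers. *Vil1* reached higher in control livers, at 0 to 0.496 in treated and 0.153 to 1.11 in control livers. *Lct* (0 to 0.127 and 0 to 0.0363) and *Slc15a1* (0 to 0.383 and 0 to 0.317) were near 0 in both groups. *Alpi*, *Cdx1* and *Cdx2* were at 0 in all 9. The part of other cells in the *Apoa4* values was not tested. Set over *Apoa1*, *Apoa4* was 0.00567 to 0.0103 in treated and 0.00394 to 0.00551 in control livers, which did not overlap. This ratio was picked after its values were seen, and 3.67% of 4935 genes over *Apoa1* lay higher in every treated liver.

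**Figure D2:**
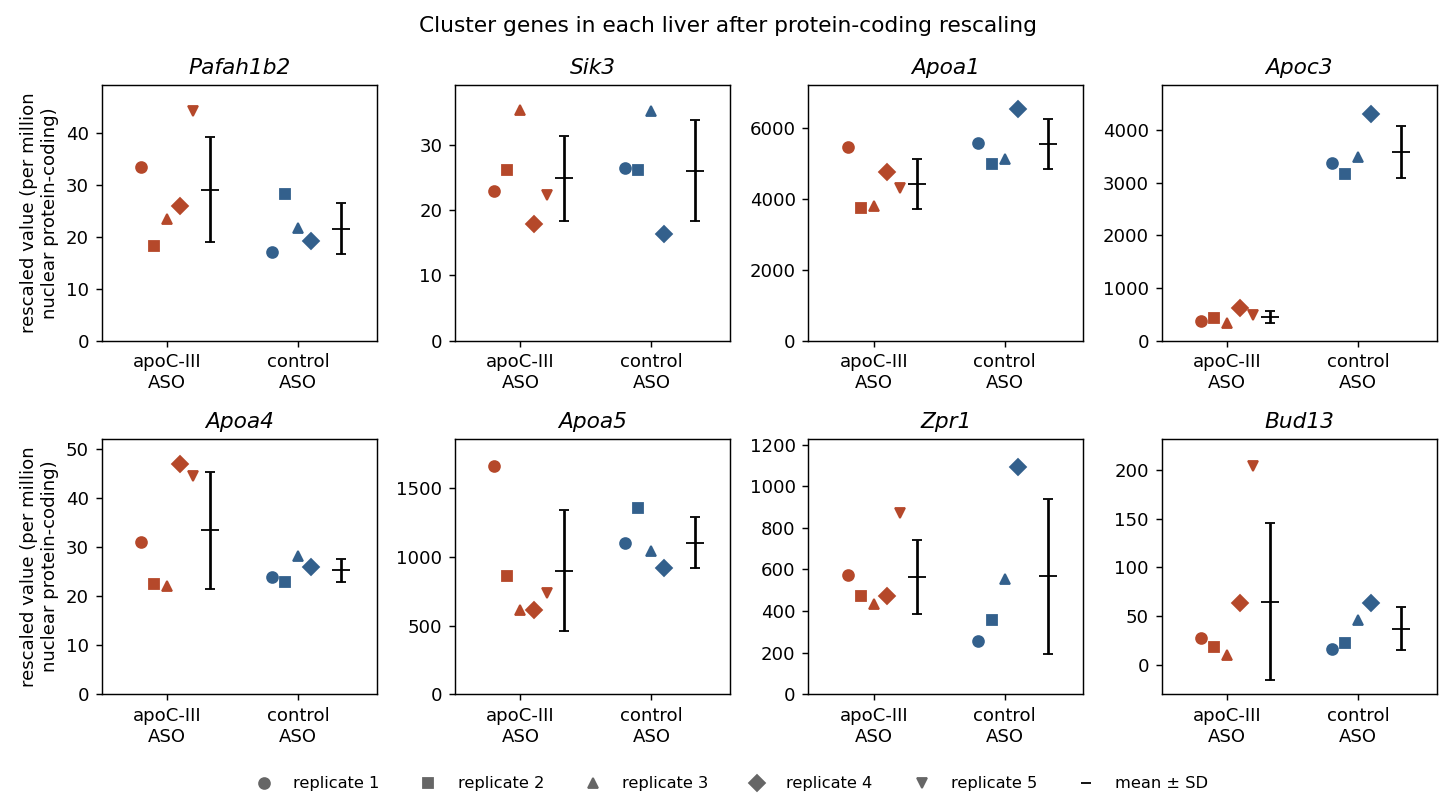
Rescaled values of the 8 cluster genes in each liver, in the order of the chromosome, on linear axes per 1000000 of nuclear protein-coding TPM, with symbols for replicates and the mean ± SD beside each group (n = 5 and 4). Of the 8 genes, *Apoc3* alone has groups that do not overlap, at 334 to 623 against 3170.3 to 4293.

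*Zpr1*, which encodes a zinc finger protein, varied more between livers after rescaling than before it. Its TPM was 41.3, 31.1, 20.4, 24.4 and 25.1 in apoC-III ASO replicates 1 to 5 and 20.8, 22.5, 29.3 and 10.5 in control ASO replicates 1 to 4. Rescaled, it was 574, 472, 432, 472 and 871 against 258, 358, 556 and 1093. The highest value of each group was in the liver with that group's lowest protein-coding share, treated replicate 5 and control replicate 4. The rescaled log2 fold change was 0.16 (95% interval -0.68 to 1.01, limma adjusted p = 0.987), and without control ASO replicate 4 it was 0.55 (-0.14 to 1.24, limma adjusted p = 0.943). The SD of *Zpr1* within groups was 0.48 on the log2 scale in TPM, at percentile 0.4 of the 500 tested genes nearest to it in mean level, and 0.66 after rescaling, at percentile 84.2. The part of the small RNA share in this was not tested.

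*Bud13*, which encodes a factor of the pre-mRNA retention and splicing complex, had the widest spread of the cluster within groups after rescaling, though not in TPM. It stood at 2.02, 1.25, 0.497, 3.27 and 5.88 TPM in apoC-III ASO replicates 1 to 5 and at 1.30, 1.42, 2.46 and 0.611 TPM in control ASO replicates 1 to 4. Rescaled, it was 28.2, 18.9, 10.5, 63.2 and 204 against 16.2, 22.6, 46.6 and 63.4. Treated replicate 5 was above every other liver on both scales, and treated replicate 3 was the lowest. The rescaled log2 fold change was 0.22 (95% interval -1.37 to 1.80, limma adjusted p = 0.991), and it turned to -0.38 without treated replicate 5. The rescaled SD within groups was 1.35 on the log2 scale, at percentile 99.4 of its 500 nearest genes, whereas in TPM it was 0.70, below 1.22 for *Apoa5*. Over the 9 livers *Bud13* and *Zpr1*, which lie 364 bases apart, had a Pearson r of 0.72 between log2 rescaled values, as a description of points that share the same library composition.

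**Figure D3:**
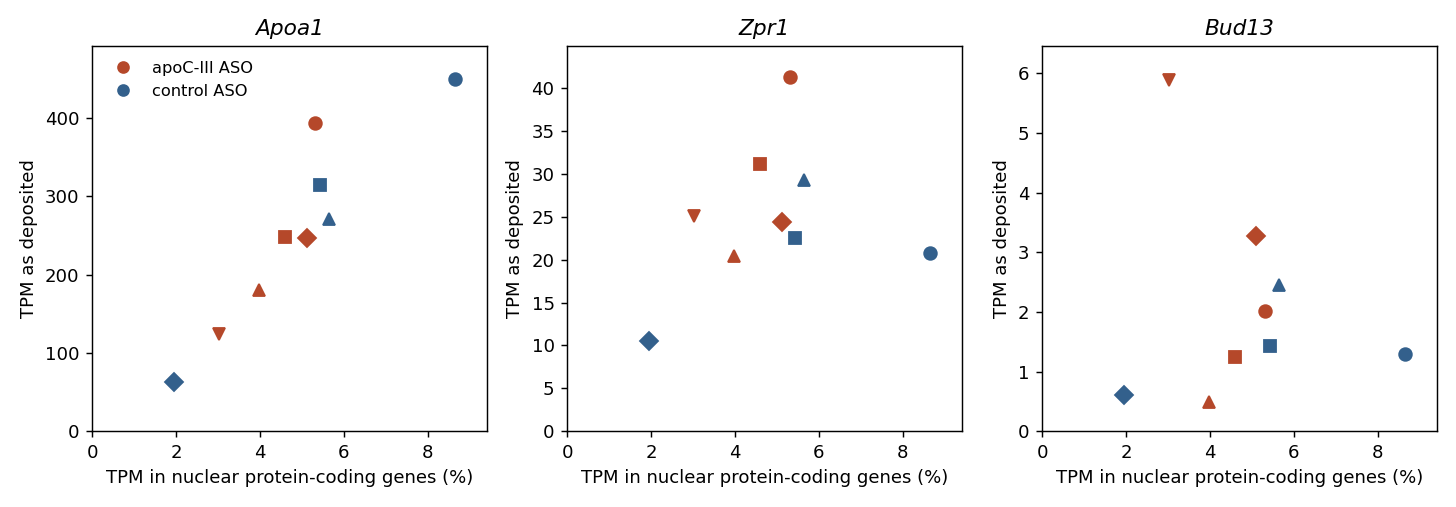
TPM as deposited of *Apoa1*, *Zpr1* and *Bud13* in each liver (1 point per liver, symbols for replicates) against the percent of TPM held by nuclear protein-coding genes. *Apoa1* runs from 63.2 TPM at a share of 1.94% to 449 TPM at 8.64%, whereas *Zpr1* stands at 20.8 TPM at 8.64% and *Bud13* is highest, at 5.88 TPM, at 3.03%.

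*Sik3* and *Pafah1b2* flank the cluster from a shared start region and were both low. *Sik3*, a salt-inducible kinase, was 1.65, 1.72, 1.67, 0.923 and 0.642 TPM in apoC-III ASO replicates 1 to 5 and 2.12, 1.65, 1.86 and 0.157 TPM in control ASO replicates 1 to 4. *Pafah1b2*, a catalytic subunit of intracellular platelet-activating factor acetylhydrolase, was 2.40, 1.20, 1.11, 1.34 and 1.27 TPM against 1.37, 1.78, 1.15 and 0.186 TPM. For both genes control ASO replicate 4 was the lowest liver and the groups overlapped. Rescaled, *Sik3* was 17.8 to 35.3 against 16.3 to 35.2, with a log2 fold change of -0.05 (95% interval -0.63 to 0.53, limma adjusted p = 0.994). Rescaled *Pafah1b2* was 18.2 to 44.2 against 17.0 to 28.3, with a log2 fold change of 0.38 (95% interval -0.22 to 0.97, limma adjusted p = 0.907).

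Across the 8 genes, 1 was called after rescaling and 0 in TPM as deposited, where limma gave 1 an unadjusted p under 0.05, as it gave 2.01% of all genes. The share of all genes called in either direction was 0.0167% after rescaling and 0.223% in TPM. The median rescaled log2 fold change was 0.06 over the 8 genes and -0.0012 over all 11954 genes, and in TPM it was 0.13 against 0.11 over 4936 genes. The 7 neighbors had rescaled log2 fold changes between -0.39 and 0.38, and the outermost 95% bounds among them were -1.37 and 1.80, both for *Bud13*. Without *Bud13* and *Zpr1* the bounds lay between -1.06 and 0.97.

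**Figure D4:**
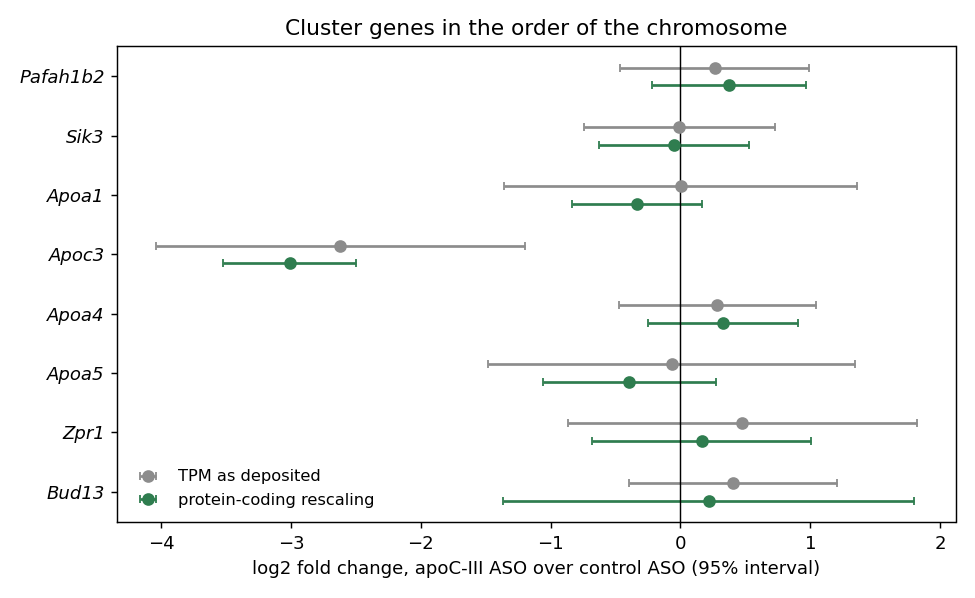
Log2 fold change of each cluster gene, apoC-III ASO over control ASO, with the 95% interval from limma, for TPM as deposited (gray) and after protein-coding rescaling (green). The *Apoc3* interval lies below 0 on both scales (-4.04 to -1.20 and -3.52 to -2.50), and the intervals of the other 7 genes include 0.

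Beyond the cluster, 29 other annotated genes of the table start within 500 kb of the *Apoc3* start. Most are noncoding and were not part of the rescaling, and 6 protein-coding genes were high enough to test after it. None was called, against 0.0167% of all genes. Limma gave 2 of the 6 an unadjusted p under 0.05, against 5.56% of all genes. *Sidt2*, a lysosomal transmembrane protein gene whose start lies at -280.4 kb from that of *Apoc3*, was 309 ± 63.4 against 157 ± 83.6 rescaled, a log2 fold change of 1.10 (limma adjusted p = 0.848). *Pcsk7*, a proprotein convertase gene at -329.1 kb, was 25.3 ± 2.58 against 56.9 ± 33.3, a log2 fold change of -0.96 (limma adjusted p = 0.864). *Tagln* was at -0.80 with a limma adjusted p of 0.902. The remaining 3 had log2 fold changes between -0.13 and -0.01. On the *Bud13* side of the cluster the only further protein-coding gene, 4931429L15Rik, was at 0 TPM in every liver. The noncoding genes there were not part of the rescaling, and the highest of them, 4930448E22Rik, reached 1.49 TPM.

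**Figure D5:**
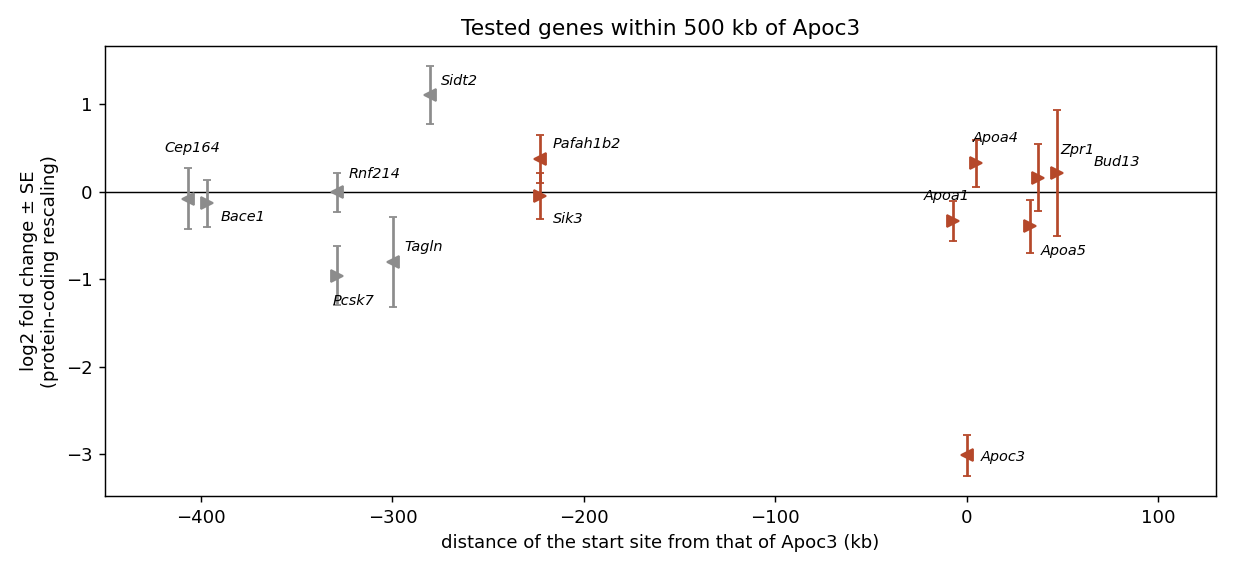
Log2 fold change with its SE after protein-coding rescaling for the 14 tested genes within 500 kb of *Apoc3*, placed by the distance of their start site from that of *Apoc3* in kb; arrowheads give the strand, red marks cluster genes and gray marks other genes. *Apoc3* is at -3.01 and every other gene lies between -0.96 and 1.10.

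Of the transcription regulators listed for this cluster, 21 of 22 were tested after rescaling and none was called, against 0.0167% of all genes. The list holds nuclear receptors, their coactivator *Ppargc1a* and other factors of hepatocytes. Limma gave 1 of the 21 an unadjusted p under 0.05, against 5.56% of all genes. *Rora*, an orphan nuclear receptor gene, was 24.1 ± 6.53 against 15.1 ± 2.19, a log2 fold change of 0.61 (limma adjusted p = 0.876). *Usf1* had the largest difference, at 0.63 (limma adjusted p = 0.921), *Nr1d1* stood at 0.50 (0.959), *Hnf4a*, a central activator of the cluster, at 0.40 (0.902) and *Nr1h3*, which encodes LXR-alpha, at -0.31 (0.907). The median log2 fold change of the list was 0.19, against -0.0012 over all genes. In TPM as deposited 16 of the 22 were tested and none was called, against 0.223% of all genes.

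Genes whose products work with these apolipoproteins on TRLs also held no called member among 24 tested after rescaling, against 0.0167% of all genes. Limma gave 1 of the 24 an unadjusted p under 0.05, against 5.56% of all genes. *Apoh*, which encodes a plasma glycoprotein found on lipoproteins, was 1516 ± 190.1 against 2173 ± 633, a log2 fold change of -0.49 (limma adjusted p = 0.884). *Scarb1*, the HDL receptor gene, was 126.5 ± 31.04 against 87.6 ± 20.7, a log2 fold change of 0.52 (limma adjusted p = 0.884). The median of the list was -0.23 and 16 of the 24 had a negative log2 fold change. In TPM as deposited 21 were tested, none was called, against 0.223% of all genes, and the median was -0.00406.

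Some genes ran closely with cluster genes over the 9 livers, among them *Sdc1* of the lipoprotein list and *Cebpb* of the regulator list. The 5 whose log2 rescaled values had the highest Pearson r with *Apoc3* were *Eif1ax* (0.957), *Gulo* (0.952), *Themis* (0.941), *S100a1* (0.939) and *Anpep* (0.939). All 5 were lower in every treated than in every control liver, *Anpep* at 10.3 to 14.9 against 40.1 to 118, so their r with *Apoc3* rests largely on the difference between groups. With *Apoa1* the highest were *Ldha* (0.969), *Ube2g1* (0.940), *Sdc1* (0.936), *Ndufa4* (0.936) and *Rarres2* (0.934). All 5 of these had a lower mean in treated livers. *Rarres2* did not overlap between the groups (368 to 558 against 606 to 718), and the others did. With *Apoa4* the highest were *Bola2* (0.948), *Sec23a* (0.937), 5031439G07Rik (0.926), *Mfsd5* (0.923) and *Cebpb* (0.922). Within the cluster and taking deviations from group means, *Apoc3* had an r of 0.76 with *Apoa4*, 0.70 with *Bud13* and 0.43 with *Zpr1*. It had 0.40 with *Apoa1*, 0.026 with *Pafah1b2*, -0.41 with *Apoa5* and -0.78 with *Sik3*. These are descriptions over 9 livers that share their library composition and scaling factors. The lists of 5 were chosen as the highest of all genes.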

How the data were processed

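Liver RNA of 5 apoC-III ASO and 4 control ASO mice was analysed, with groups taken from the sample labels. The authors deposited TPM per gene, made per the labels with kallisto 0.43.1 and GRCm38; the study's methods describe read counts from STAR and featureCounts tested with DESeq2, and those were not used here. The annotation release behind the TPM is not given in the sources used here. TPM keeps no depth, so no counting interval could be given, and 51633 of 51912 identifiers (99.46%) matched GENCODE M21.

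Fits used limma 3.58.1 in R 4.3.3 (eBayes with trend, no covariate) on log2(value + 1), for genes with a mean of at least 1, on TPM as deposited and after protein-coding rescaling. Rescaling brought nuclear protein-coding genes to 1000000 per liver and divided them by median-of-ratios factors from the 12256 genes above 0 in all livers. A call needed a p below 0.05 after Benjamini-Hochberg adjustment over all genes tested and a change over 1.5-fold. Single values were tested with exact two-sided permutation tests. The fits were also run on simulated data with independent noise per gene. Liver-wide shifts like those of these data were not simulated, so that run does not cover them. Tables were handled with pandas 2.3.3 and numpy 2.4.6 in Python 3.11.15, exact tests run with scipy 1.17.1 and plots drawn with matplotlib 3.10.9.

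All 8 cluster genes are given, with *Apoe*, *Ndst1*, the 3 largest changes and 3 smallest p of each list, the most abundant hepatocyte marker, and the 5 genes most like *Apoc3*, *Apoa1* and *Apoa4*. *Anpep* also appears as the only other called gene after rescaling. The cluster genes and lists were chosen with earlier results of these data known. Of the other marker lists, rescaled sums in treated and control livers were 69.4 to 98.6 and 62.7 to 110.1 for macrophages (most abundant *Cd5l*), 82.1 to 124 and 71.1 to 121 for endothelial cells (*Stab2*), 102 to 128 and 120.5 to 232 for stellate cells (*Dcn*), 37.9 to 81.8 and 41.0 to 121 for cholangiocytes (*Spp1*) and 46.9 to 925 and 47.9 to 2173 for blood (*Hbb-bs*). Enterocyte genes were led by *Fabp2*. Nothing in the labels says that the replicates shared a litter or day. Alternatives were other pseudocounts, filters, scalings and thresholds, eBayes without a trend, array weights, a block for the replicate number and each liver left out. Protein sequences, read counts and the ASO sequences were not analysed here, and some genes that this rule would name are not reported here.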

Additional observations from a re-analysis of the deposited data

Results flagged for a closer look

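The 8 cluster genes on 2 scales and 7 ratios to *Apoa1*, each in 2 groups, gave 46 groups of values. Of these, 6 had a liver that stood apart from the rest of its group by Dixon's criterion. Chance gives about 1 in 20 for separate groups. The groups here reuse the same 9 livers and the ratios share *Apoa1*, so the count cannot be set against that rate. All 6 were in apoC-III ASO livers, 4 of them in genes of replicate 5 or its ratios and 2 in replicate 1. The criterion asks for a wider gap among 4 livers than among 5, so the 2 groups did not face the same cutoff. *Sik3* in control ASO replicate 4, for example, was not flagged at 0.157 TPM against 1.65 to 2.12 in the other control livers. In replicate 5, rescaled *Bud13* was 204 against 10.5 to 63.2 in the other treated livers. Its ratio to *Apoa1* was 0.0472 there against 0.00276 to 0.0132. The ratio of *Zpr1* to *Apoa1* was 0.201 in replicate 5 against 0.0989 to 0.125, and that of *Pafah1b2* was 0.0102 against 0.00485 to 0.00616. Replicate 5 had the lowest nuclear protein-coding share of the treated livers, 3.03%, and the part of that share in these values was not tested. In replicate 1, rescaled *Apoa5* was 1663 against 609.7 to 862 in the other treated livers. *Pafah1b2* was 2.40 TPM there against 1.11 to 1.34. *Apoc3* and *Apoa1* had no such liver on either scale.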

How the results depend on the processing

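The decrease of *Apoc3* kept its direction under every alternative tried. After rescaling it stayed called by limma under all 20, at log2 fold changes of -3.14 to -2.53 (adjusted p 7.63e-05 to 0.0109). The differences in its level and in its ratio to *Apoa1* ran from -89.2% to -82.8%. Since treated and control livers did not overlap, the exact permutation p stood at the smallest value each number of livers allows (0.0159 to 0.0357), which says nothing of stability. In TPM as deposited limma called it with array weights (-3.08, adjusted p = 2.19e-04), with median-of-ratios scaling (-2.93, adjusted p = 9.10e-04) and, among single livers left out, only without control ASO replicate 4, the range over those fits being -3.21 to -2.31 (adjusted p 0.00270 to 0.578). Added after seeing the data, median-of-ratios scaling without that liver gave -2.85 and leaving out both livers with the lowest protein-coding share gave -3.05, both called.

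Of all genes in TPM, 11 were called by the fit as reported, 4 with a pseudocount of 0.1, 7 with 0.5, 0 with no filter, with a mean of at least 5 or with eBayes without a trend (limma gave 475, 32 and 76 genes an unadjusted p under 0.05), 2 with median-of-ratios scaling, 4 in each fit added after seeing the data, and 4 to 17 with each liver left out. After rescaling 2 were called, 1 with no filter, without a trend or without the factors, 5 without both low livers, and 1 to 3 with each liver left out. The cause of these differences was not tested.

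No neighbor was called under any alternative, but directions turned. In TPM, *Apoa1* turned to -0.45 with array weights, -0.31 with median-of-ratios scaling, -0.24 with that scaling without control ASO replicate 4 and -0.39 without both low livers, and ranged from -0.60 to 0.34 with each liver left out. *Apoa5* ranged from -0.80 to 0.26 and *Sik3* from -0.34 to 0.14 with each liver left out, and *Sik3* was 0.18 and 0.032 with pseudocounts of 0.1 and 0.5. *Bud13* turned to -0.087 with array weights and -0.063 without both low livers, and *Pafah1b2* to -0.095 with array weights. After rescaling, leaving out the median-of-ratios factors gave 0.14 for *Apoa1*, 0.086 for *Apoa5* and 0.40 for *Sik3*, with the median of all genes at 0.41. With each liver left out *Zpr1* ranged from -0.14 to 0.55, *Bud13* from -0.38 to 0.65 and *Sik3* from -0.25 to 0.11, and *Bud13* was -0.069 without both low livers.

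Replicate numbers 1 to 4 occur in both groups. Deviations of same-numbered livers correlated at 0.066, 0.122, 0.026 and 0.191, and those of differently numbered livers at -0.208 to 0.179. Not every liver correlated best with its own number. Whether same-numbered livers shared a litter or day was not tested. A replicate block, in which apoC-III ASO replicate 5 has no partner and drops out, called 26 genes in TPM and 3 after rescaling. It left *Apoc3* called after rescaling only, and gave 0.17 for *Apoa5* and 0.11 for *Sik3* in TPM and -0.0068 for *Zpr1* and -0.38 for *Bud13* after rescaling. Depth is unknown, and the wide intervals of *Bud13* and *Zpr1* limit what their comparison can show.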
